A study of Mus musculus with 2 samples.

Results

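The genes described here are those of the immunoglobulin heavy chain constant regions and their partners in mouse peritoneal cavity cells. The 9 members, out of 28692 genes listed in the files, are Ighm, Ighd, Ighg3, Ighg1, Ighg2b, Ighg2c, Igha, Jchain and Mzb1, and they were taken from the gene tables by symbol. Their transcripts were counted per cell and summed over B-1, B-2 and other cell classes. The assay was droplet single-cell RNA sequencing with 3′ chemistry, in 2 libraries. The first came from Xbp1dIEC mice and the other from WT mice. Xbp1dIEC mice lack Xbp1 in the epithelial cells of the intestine; the gene encodes a factor that cells use when unfolded proteins build up. All mice were male, germ-free and of the C57BL/6 strain, and were 10 weeks old. Each library pooled equal numbers of cells from 4 mice, and 8700 cells were loaded per library. The series' title places the comparison in a study of the IgA response to epithelial endoplasmic reticulum stress. With 1 library per genotype there is no replicate and no test, differences between mice within a pool cannot be seen, and genotype and library cannot be told apart. All 95% intervals cover counting error only.

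A B cell makes its heavy chain by joining a rearranged variable segment to a constant gene. IgM and IgD come from the same long transcript by alternative splicing, whereas IgG, IgE and IgA require class switch recombination. That step removes Ighm itself and the DNA between it and the new constant gene. Peritoneal B-1 cells are known for natural IgM and as a source of part of the gut's IgA. Jchain encodes the J chain that links IgM into pentamers and IgA into dimers, and Mzb1 encodes an endoplasmic reticulum protein that helps IgM and IgA assemble and be secreted.

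The constant genes lie in order on the minus strand of chromosome 12 in the build GRCm38, which is the mm10 build named in the submitters' processing notes. Ighm occupies chr12:113418558-113422730 and Ighd chr12:113406604-113416324, which starts 2.23 kb downstream of it. The other genes follow downstream of Ighm: Ighg3 at 57.3 kb, Ighg1 at 88.0 kb, Ighg2b at 111 kb, Ighg2c at 130 kb and Igha, at chr12:113254830-113260236, at 158 kb. Jchain lies at chr5:88519809-88527891 on the minus strand. Secreted mu and alpha chains end in a tailpiece through which J chain binds, and gamma chains lack it. The coding ends of the secreted forms after the last constant domain, read from the reference genome with a GENCODE annotation, are shown because they mark which isotypes can carry J chain; capitals mark the cysteine codon just before the last codon.
Ighm: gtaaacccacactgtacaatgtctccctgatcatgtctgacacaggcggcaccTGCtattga
Igha: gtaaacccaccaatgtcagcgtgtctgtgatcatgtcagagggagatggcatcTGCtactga
Ighg2b: gtaaatga
The Ighm stretch is chr12:113420867-113420928 and the Igha stretch chr12:113258768-113258829, each of 62 bases with 1 cysteine codon. The Ighg2b stretch, chr12:113306389-113306396, has 8 bases and 0 cysteine codons, and those of Ighg3, Ighg1 and Ighg2c have the same letters. The deposited counts are per gene, so secreted and membrane forms of a heavy chain cannot be told apart. No stretch of 98 bases, the length of the transcript read, was shared between the annotated transcripts of different constant genes (0 shared windows for every pair).

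The files held 6246 barcodes with 49703442 unique molecular identifiers (UMIs) for Xbp1dIEC and 6204 barcodes with 56229330 UMIs for WT. After filtering, 6113 Xbp1dIEC and 6058 WT cells were kept, and 58 barcode sequences occurred in both libraries. A mitochondrial share of 5% or more was seen in 1153 Xbp1dIEC and 425 WT barcodes. Cells were clustered without any immunoglobulin gene, Jchain or Mzb1, so the levels of the members did not define the classes. Xbp1, the gene deleted in the epithelium, is not targeted in these cells. In CPM, the share of a class's UMIs scaled to a common total, it had 120 in large macrophage-like cells of the Xbp1dIEC library and 113 in those of the WT library, which checks no label.

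The B-1-like class held 958 Xbp1dIEC and 533 WT cells, and the B-2-like class 330 Xbp1dIEC and 488 WT cells. In B-1-like cells Zcwpw1 reached 408 CPM in Xbp1dIEC and 286 CPM in WT, and Fcer2a, the low-affinity IgE receptor of follicular B cells, 8.99 CPM in Xbp1dIEC and 14.5 CPM in WT. In B-2-like cells Fcer2a reached 287 CPM in Xbp1dIEC and 271 CPM in WT, and Zcwpw1 9.67 CPM in Xbp1dIEC and 10.3 CPM in WT. The labels B-1 and B-2 thus fit the markers from which they were given, but a further cluster of 486 Xbp1dIEC and 615 WT cells carried both sets at lower levels and is called intermediate. In it Zcwpw1 stood at 80.4 CPM in Xbp1dIEC and 48.7 CPM in WT, and Fcer2a at 63.8 CPM in Xbp1dIEC and 72.1 CPM in WT. A cycling B cell class (39 Xbp1dIEC and 25 WT cells) completes the 4 B cell classes, with 1813 Xbp1dIEC and 1661 WT cells in all. Clusters with B and T cell genes together (141 Xbp1dIEC and 303 WT cells) or B and myeloid genes together (368 Xbp1dIEC and 292 WT cells) were kept apart from them.

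Markers of other lineages were low in the B-1-like class but not absent. The 7 T cell markers summed to 568 CPM in Xbp1dIEC and 518 CPM in WT B-1-like cells, against 4293 CPM in Xbp1dIEC and 4810 CPM in WT T cell-like cells, and the 9 large macrophage markers summed to 134 CPM in Xbp1dIEC and 164 CPM in WT B-1-like cells; their part in the results was not tested. The B-1-like class joins clusters c8 and c10, both with Zcwpw1 and Zbtb32 among their 10 leading genes, and Ahnak2 ranked highest in c10. Cluster c10 made up 16.0% (13.7 to 18.4) of the class in Xbp1dIEC and 44.1% (39.8 to 48.4) in WT. Leaving out the barcodes found in both libraries moved no log2 ratio of the 7 members measured in B-1-like cells by more than its counting error.

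Ighm, the mu heavy chain, was by far the most abundant heavy chain transcript in every B cell class. B-1-like cells had 2950 CPM (2915 to 2985) in Xbp1dIEC and 3400 CPM (3347 to 3453) in WT. The level was nearly the same in the intermediate class, at 3034 CPM in Xbp1dIEC and 3435 CPM in WT, and slightly lower in B-2-like cells, at 2657 CPM in Xbp1dIEC and 3054 CPM in WT. At least 1 Ighm UMI was found in 99.9% of Xbp1dIEC and 100% of WT B-1-like cells, whose median depth was 8134 UMIs in Xbp1dIEC and 7356 UMIs in WT. Large macrophage-like cells, which should lack the transcript, had an Ighm UMI in 18.5% of Xbp1dIEC and 28.3% of WT cells, at median depths of 7560 UMIs in Xbp1dIEC and 9294 UMIs in WT. Per B-1-like cell the median was 25 Ighm UMIs in Xbp1dIEC and 26 in WT, and the highest cells had 585 in Xbp1dIEC and 118 in WT.

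Ighm was lower in the Xbp1dIEC library by a similar amount in each B cell class. Log2 ratios are given as Xbp1dIEC over WT, with 1 CPM added. For Ighm this ratio came to -0.20 (-0.23 to -0.18) in B-1-like cells, -0.18 (-0.21 to -0.14) in intermediate cells and -0.20 (-0.26 to -0.14) in B-2-like cells. Within the B-1-like class it was -0.21 in cluster c8, at 2853 CPM in Xbp1dIEC and 3295 CPM in WT, and -0.01 (-0.06 to 0.05) in cluster c10, at 3521 CPM in Xbp1dIEC and 3537 CPM in WT. Transcripts of partner chains moved alongside only in part. Cd79a, which encodes a signalling chain of the B cell receptor, had log2 ratios of -0.14 in B-1-like and -0.09 in B-2-like cells. Cd79b, which encodes the other signalling chain, had -0.31 in B-1-like and -0.14 in B-2-like cells. Igkc, the kappa light chain, had -0.18 in B-1-like and 0.02 in B-2-like cells. In cluster c10, where Ighm had -0.01, the ratios were -0.17 for Cd79a, -0.35 for Cd79b and 0.41 for Igkc. At a clustering resolution of 2 the Ighm ratio in B-1-like cells was -0.06. These differences are small, and whether they exceed the difference between any 2 pools of mice was not tested.

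Among B-1-like, intermediate and B-2-like cells, Ighd, the delta heavy chain, was lowest in B-1-like and highest in B-2-like cells. The small cycling B cell class lay near B-1-like cells, at 111 CPM (70 UMIs) in Xbp1dIEC and 120 CPM (47 UMIs) in WT. B-1-like cells had 119 CPM (1130 UMIs) in Xbp1dIEC and 131 CPM (608 UMIs) in WT. The intermediate class had 348 CPM in Xbp1dIEC and 360 CPM in WT, and B-2-like cells 815 CPM in Xbp1dIEC and 862 CPM in WT. Relative to Ighm, there were 4.05 Ighd UMIs per 100 in Xbp1dIEC and 3.87 in WT B-1-like cells, 11.5 in Xbp1dIEC and 10.5 in WT intermediate cells, and 30.7 in Xbp1dIEC and 28.2 in WT B-2-like cells. The order was the same in both libraries, and no intervals of neighbouring classes overlapped. B-1-like over B-2-like cells gave a log2 ratio of -2.76 in Xbp1dIEC and -2.70 in WT. Zfp318, a nuclear factor required for the long transcript that is spliced to Ighd, followed the same order. It had 13.3 CPM in Xbp1dIEC and 11.9 CPM in WT B-1-like cells, 31.3 CPM in Xbp1dIEC and 26.2 CPM in WT intermediate cells, and 62.1 CPM in Xbp1dIEC and 70.8 CPM in WT B-2-like cells. Zfp318 was not particular to B cells, since large macrophage-like cells had 12.9 CPM in Xbp1dIEC and 11.8 CPM in WT.

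Between the libraries Ighd differed little within a class. Its log2 ratio came to -0.14 (-0.28 to 0.01) in B-1-like, -0.05 in intermediate and -0.08 (-0.19 to 0.03) in B-2-like cells. Summed over the 4 B cell classes it was -0.63, with 231 CPM in Xbp1dIEC and 358 CPM in WT, where the Xbp1dIEC library held more B-1-like and fewer B-2-like cells. In cluster c10 Ighd had 73.6 CPM in Xbp1dIEC and 125 CPM in WT, a log2 ratio of -0.76 (-1.10 to -0.42), and in cluster c8 127 CPM in Xbp1dIEC and 136 CPM in WT, a ratio of -0.10. With each cell classed by its own marker UMIs in place of its cluster, the B-1 ratio was -0.43.

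Mzb1 was almost as widespread as Ighm among B cells, at a lower level. B-1-like cells had 821 CPM in Xbp1dIEC and 838 CPM in WT, a log2 ratio of -0.03 (-0.09 to 0.03). The intermediate class had 775 CPM in Xbp1dIEC and 811 CPM in WT, and B-2-like cells 559 CPM in Xbp1dIEC and 608 CPM in WT. B-1-like over B-2-like cells gave a log2 ratio of 0.55 in Xbp1dIEC and 0.46 in WT. Per 100 Cd79a UMIs there were 36.7 Mzb1 UMIs in Xbp1dIEC and 34.0 in WT B-1-like cells, against 17.8 in Xbp1dIEC and 18.2 in WT B-2-like cells. Large macrophage-like cells had 6.22 CPM in Xbp1dIEC and 6.98 CPM in WT.

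**Figure D1:**
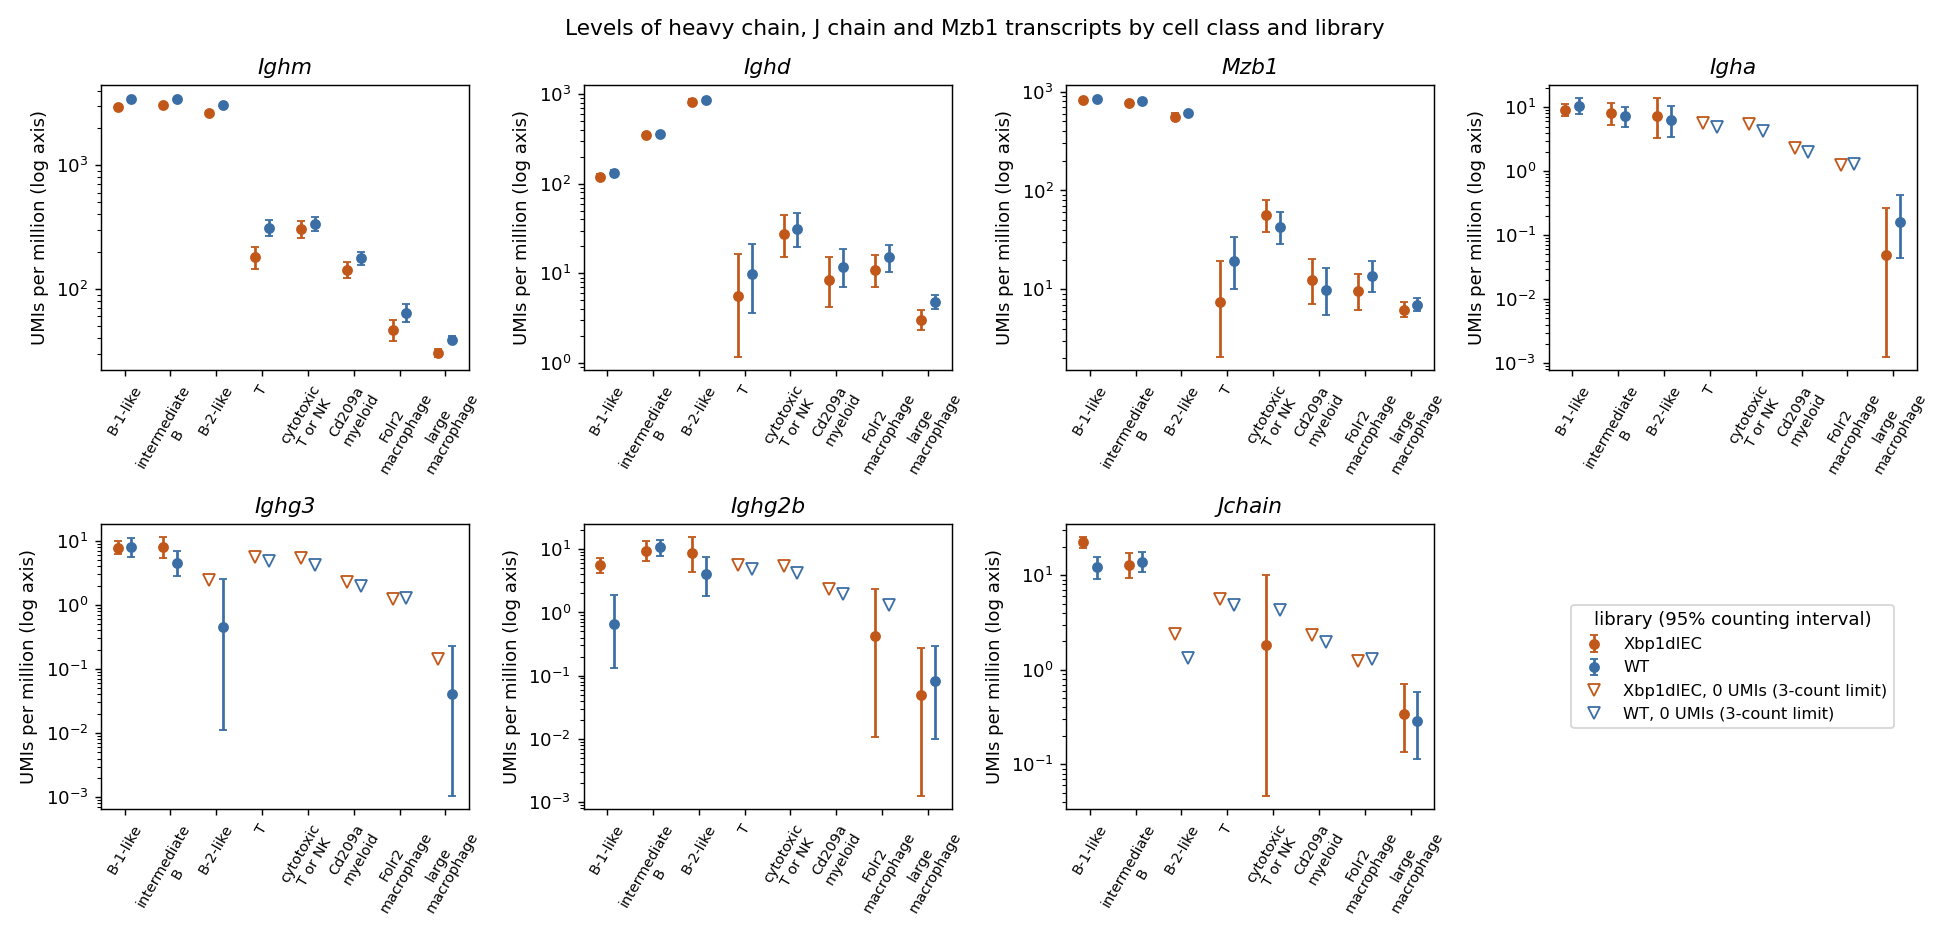
Levels of 7 members in CPM on log axes, by cell class (x axis), with Xbp1dIEC (orange) left of WT (blue) and bars for 95% counting intervals; open triangles mark the limit of 3 counts where no UMI was found. Ighd climbs across the 3 B cell classes, from 119 CPM in Xbp1dIEC and 131 CPM in WT B-1-like cells. It reaches 815 CPM in Xbp1dIEC and 862 CPM in WT B-2-like cells. Igha in these 3 classes lies from 6.27 CPM in WT B-2-like to 10.6 CPM in WT B-1-like cells.

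Igha, the alpha heavy chain of IgA, was detected at a low level in all B cell classes. B-1-like cells had 9.20 CPM (7.37 to 11.3) in Xbp1dIEC, from 87 UMIs in 77 cells, and 10.6 CPM (7.84 to 14.0) in WT, from 49 UMIs in 42 cells. The log2 ratio was -0.19 (-0.66 to 0.30), so no difference between the libraries was detectable at this depth. Within the class its sign was the opposite, at 0.25 (-0.45 to 0.98) in cluster c8 and 0.06 (-0.73 to 0.83) in cluster c10. Cluster c10, which had more Igha than c8, was 16.0% of the class in Xbp1dIEC and 44.1% in WT. Intermediate cells had 8.04 CPM in Xbp1dIEC and 7.21 CPM in WT, and B-2-like cells 7.25 CPM in Xbp1dIEC and 6.27 CPM in WT, all with overlapping intervals. Per 100 Ighm UMIs there were 0.312 Igha UMIs in Xbp1dIEC and 0.312 in WT B-1-like cells, and 0.273 in Xbp1dIEC and 0.205 in WT B-2-like cells. The same ratio in large macrophage-like cells was 0.160 (0.00404 to 0.895) in Xbp1dIEC, from 1 Igha UMI, and 0.420 (0.114 to 1.08) in WT, from 4 Igha UMIs. Thus 8.04% of Xbp1dIEC and 7.88% of WT B-1-like cells had an Igha UMI, against 0.0360% of Xbp1dIEC and 0.151% of WT large macrophage-like cells.

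The Igha UMIs were spread over many cells. Over the 4 B cell classes, 132 UMIs lay in 118 Xbp1dIEC cells and 98 UMIs in 87 WT cells. Of these UMIs 81.8% in Xbp1dIEC and 80.6% in WT were the only Igha UMI of their cell, and no cell had more than 4 in Xbp1dIEC or 3 in WT. In B-2-like cells the 9 UMIs in Xbp1dIEC and the 14 in WT were all in separate cells. Igha was higher in cluster c10 than in c8 in both libraries. Cluster c10 had 16.8 CPM and cluster c8 7.92 CPM in Xbp1dIEC, a log2 ratio of 0.99 (0.30 to 1.65), and cluster c10 had 16.0 CPM and cluster c8 6.48 CPM in WT, a log2 ratio of 1.19 (0.38 to 2.00).

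Of the gamma genes, Ighg3 was found mainly in B-1-like and intermediate cells. It had 7.82 CPM (74 UMIs) in Xbp1dIEC and 8.00 CPM (37 UMIs) in WT B-1-like cells, a log2 ratio of -0.03 (-0.55 to 0.51). Within the class, cluster c10 had 5.10 CPM in Xbp1dIEC and 9.0 CPM in WT, a log2 ratio of -0.71 (-1.91 to 0.45), and cluster c8 8.29 CPM in Xbp1dIEC and 7.24 CPM in WT, a ratio of 0.17 (-0.50 to 0.88). Intermediate cells had 8.04 CPM in Xbp1dIEC and 4.59 CPM in WT, a log2 ratio of 0.69 (-0.05 to 1.43). B-2-like cells had 0 UMIs in Xbp1dIEC, which allows up to 2.42 CPM, and 1 UMI in WT. The isotype IgG3 is typical of responses that do not need T cells.

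Most Ighg2b UMIs lay in few cells. Over the 4 B cell classes there were 97 UMIs in 28 Xbp1dIEC cells and 63 UMIs in 18 WT cells, with up to 11 per cell in Xbp1dIEC and 10 in WT. A single UMI was found in 12 of the 28 Xbp1dIEC and 5 of the 18 WT cells. Only 12.4% of the UMIs in Xbp1dIEC and 7.94% in WT were alone in their cell, and the 10 highest cells held 72.2% in Xbp1dIEC and 82.5% in WT. B-1-like cells had 5.60 CPM in Xbp1dIEC, from 53 UMIs in 15 cells, all in cluster c8, and 0.649 CPM in WT, from 3 UMIs in 3 cells. The log2 ratio was 2.00 (1.11 to 2.59), and it rests on where those few cells fall. It was 0.62 without the 10 highest cells of each library and 0.19 with called doublets kept. The 0.62 says little about size, because that removal takes out all 3 WT cells with Ighg2b and leaves WT at the 1 CPM added. In the intermediate class Ighg2b had 9.48 CPM in Xbp1dIEC and 10.7 CPM in WT, and over all 4 B cell classes 6.55 CPM in Xbp1dIEC and 5.33 CPM in WT, a log2 ratio of 0.25 (-0.15 to 0.66).

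The remaining switched isotypes were nearly absent. Ighg1 had 3 UMIs in 3 Xbp1dIEC B cells and 11 UMIs in 2 WT B cells, with 6 and 5 UMIs in these WT cells, both of the intermediate class. Ighg2c had 1 UMI in Xbp1dIEC and 4 in WT. Ighe, the epsilon chain, had 0 UMIs in every class of both libraries, and the files list no Ighg2a gene; the C57BL/6 haplotype is known to carry Ighg2c in its place.

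**Figure D2:**
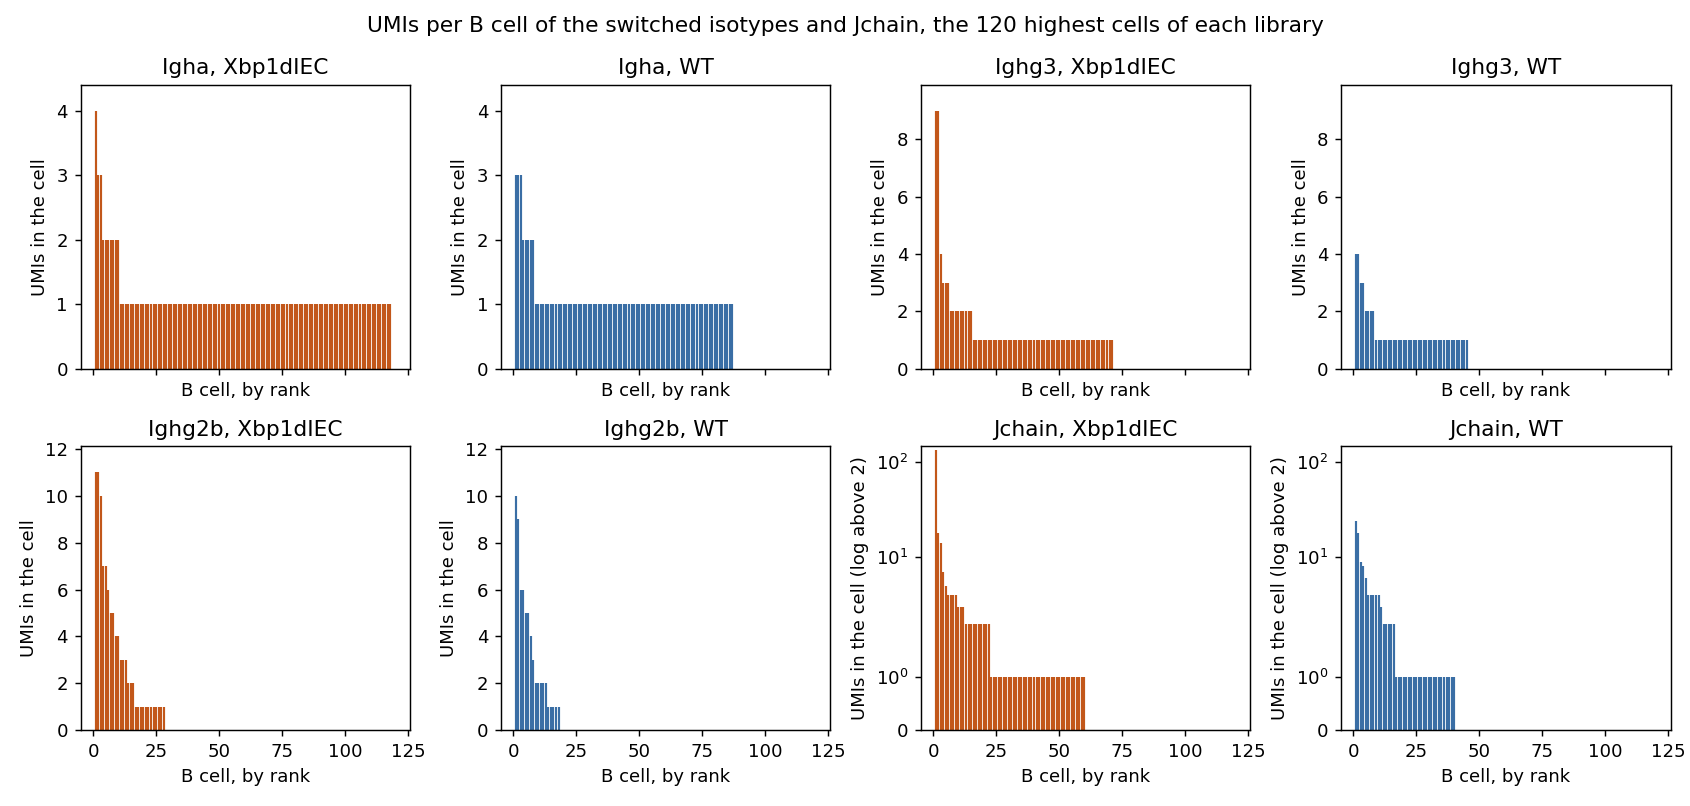
UMIs per cell (y axis) in the 120 highest B cells of each library, ranked along the x axis, for Igha, Ighg3, Ighg2b and Jchain, with Xbp1dIEC (orange) left of WT (blue) for each gene; the Jchain axis is logarithmic above 2 UMIs. Igha shows a long row of cells with 1 UMI each (118 Xbp1dIEC and 87 WT cells in all), whereas Ighg2b and Jchain UMIs gather in few cells.

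To ask which isotype a cell used, each cell was thinned to 2500 UMIs and assigned to the isotype with 3 or more UMIs and more than any other. Among the 4 B cell classes Ighm led in 1693 of 1809 Xbp1dIEC cells and 1591 of 1661 WT cells, and Ighg2b led in 1 Xbp1dIEC and 2 WT cells. Igha led in 0 of 958 Xbp1dIEC and 0 of 533 WT B-1-like cells, which allows a share of up to 0.313% in Xbp1dIEC and 0.563% in WT. The ranking of genes by their level in cells led by Igha could not be made for this reason. The Ighg2b-led cells were chosen for description after their values were seen. In full depth, the Xbp1dIEC cell, of the intermediate class, had 11 Ighg2b and 5 Ighm UMIs. A WT B-2-like cell had 9 Ighg2b and 7 Ighm UMIs, and a WT intermediate cell had 6 Ighg2b and 0 Ighm UMIs. Without thinning, Ighg3 led in 1 Xbp1dIEC and 0 WT cells of the 4 classes.

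Switched isotypes were thus almost always found beside Ighm in the same cell. Among B cells with 3 or more Ighg2b UMIs, 13 in Xbp1dIEC and 8 in WT, the median Ighm count was 29 in Xbp1dIEC and 36.5 in WT, and Ighg2b exceeded Ighm in 1 Xbp1dIEC and 2 WT cells. Among B cells with 3 or more Ighg3 UMIs, 6 in Xbp1dIEC and 4 in WT, the median Ighm count was 31 in Xbp1dIEC and 30 in WT, and the lowest 0 in Xbp1dIEC and 20 in WT. Ighg3 exceeded Ighm in 1 Xbp1dIEC and 0 WT cells. Among B cells with 3 or more Igha UMIs, 3 in Xbp1dIEC and 3 in WT, the median Ighm count was 20 in Xbp1dIEC and 27 in WT, and Ighm exceeded Igha in all of them. After thinning, Ighm and Igha were found together in 2.82% (1.87 to 4.07) of Xbp1dIEC and 2.81% (1.58 to 4.60) of WT B-1-like cells, and all 27 Xbp1dIEC and 15 WT cells with Igha also had Ighm. Ighm and Ighg3 were found together in 1.77% (1.04 to 2.83) of Xbp1dIEC and 1.31% (0.530 to 2.69) of WT B-1-like cells. Ighm was in 99.7% of Xbp1dIEC and 99.8% of WT B-1-like cells at that depth, so joint detection says little beyond the level of Igha. Whether such cells are doublets, carry free RNA or hold both transcripts was not tested. Counts per gene also do not show whether their Igha or Ighg transcripts came from a switched gene, and this was not tested.

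Ighm and Ighd were found together far more often, and among B-1-like, intermediate and B-2-like cells least in B-1-like cells. After thinning, 195 of 958 Xbp1dIEC (20.4%) and 131 of 533 WT B-1-like cells (24.6%) had both. The share was 52.9% in Xbp1dIEC and 50.9% in WT intermediate cells, and 84.8% in Xbp1dIEC and 83.8% in WT B-2-like cells. In large macrophage-like cells it was 0.0361% in Xbp1dIEC and 0.0756% in WT. Without thinning the B-1-like shares were 50.3% in Xbp1dIEC and 51.8% in WT, so the share depends on depth while the order of the classes does not.

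Within the 4 B cell classes Jchain UMIs were found in few cells, some of them with very many. There were 258 UMIs in 60 Xbp1dIEC cells and 122 UMIs in 40 WT cells. B-1-like cells had 22.4 CPM (212 UMIs) in Xbp1dIEC and 12.1 CPM (56 UMIs) in WT, and intermediate cells 12.9 CPM in Xbp1dIEC and 14.0 CPM in WT. B-2-like cells had 0 UMIs in both libraries, which allows up to 2.42 CPM in Xbp1dIEC and 1.34 CPM in WT. The cluster with B and T cell genes had 9.16 CPM (14 UMIs) in Xbp1dIEC and 68.5 CPM (234 UMIs) in WT, a log2 ratio of -2.77 (-3.56 to -2.06), and 221 of the 234 WT UMIs lay in 1 cell. Without the highest cell of each library it had 5.26 CPM in Xbp1dIEC and 3.83 CPM in WT. Large macrophage-like cells had 7 UMIs in Xbp1dIEC and 7 in WT.

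The B-1-like log2 ratio of Jchain was 0.84 (0.43 to 1.25), and 1 cell set it. The highest Xbp1dIEC cell held 131 of the 212 UMIs and the next 18, whereas the highest WT cell held 18 and the next 6. Without the highest cell of each library the ratio was 0.05 (-0.46 to 0.58). The clusters went in opposite directions: cluster c8 had 4.95 CPM in Xbp1dIEC and 12.6 CPM in WT (-1.19, -1.80 to -0.56), and cluster c10 125 CPM in Xbp1dIEC and 11.5 CPM in WT (3.34), or 30.2 CPM in Xbp1dIEC and 5.63 CPM in WT without the highest cell of each.

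In each library 1 cell with very many Jchain UMIs, singled out after its values were seen, also had very many Ighm UMIs. Plasma cells and plasmablasts are known to express J chain and large amounts of heavy and light chain. The highest Xbp1dIEC cell had 131 Jchain, 585 Ighm, 76 Mzb1, 3961 Igkc and 8 Xbp1 UMIs. It had 2 UMIs of the plasma cell surface gene Sdc1, 0 of Prdm1, the master regulator of plasma cells, and 0 of Igha. A WT cell in the cluster with B and T cell genes had 221 Jchain, 1114 Ighm, 94 Mzb1, 4552 Igkc and 10 Xbp1 UMIs. That WT cell had 2 UMIs of Prdm1, 2 of Sdc1 and 1 of Igha. B cells with 3 or more Jchain UMIs numbered 12 in Xbp1dIEC and 11 in WT. In Xbp1dIEC their summed Ighm level was 7951 CPM, or 4175 CPM without the cell with most Jchain, against 2879 CPM in the other B cells. In WT it was 5820 CPM, or 5506 CPM without the cell with most Jchain, against 3303 CPM in the other B cells. Another WT cell, with 9 Jchain UMIs, held 245 of the 705 Ighm UMIs left after that removal. Mzb1 in Xbp1dIEC was 1480 CPM in the Jchain cells, or 1046 CPM without the cell with most Jchain, and 780 CPM in the others. In WT Mzb1 was 1139 CPM in the Jchain cells, or 1093 CPM without the cell with most Jchain, and 776 CPM in the others.

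**Figure D3:**
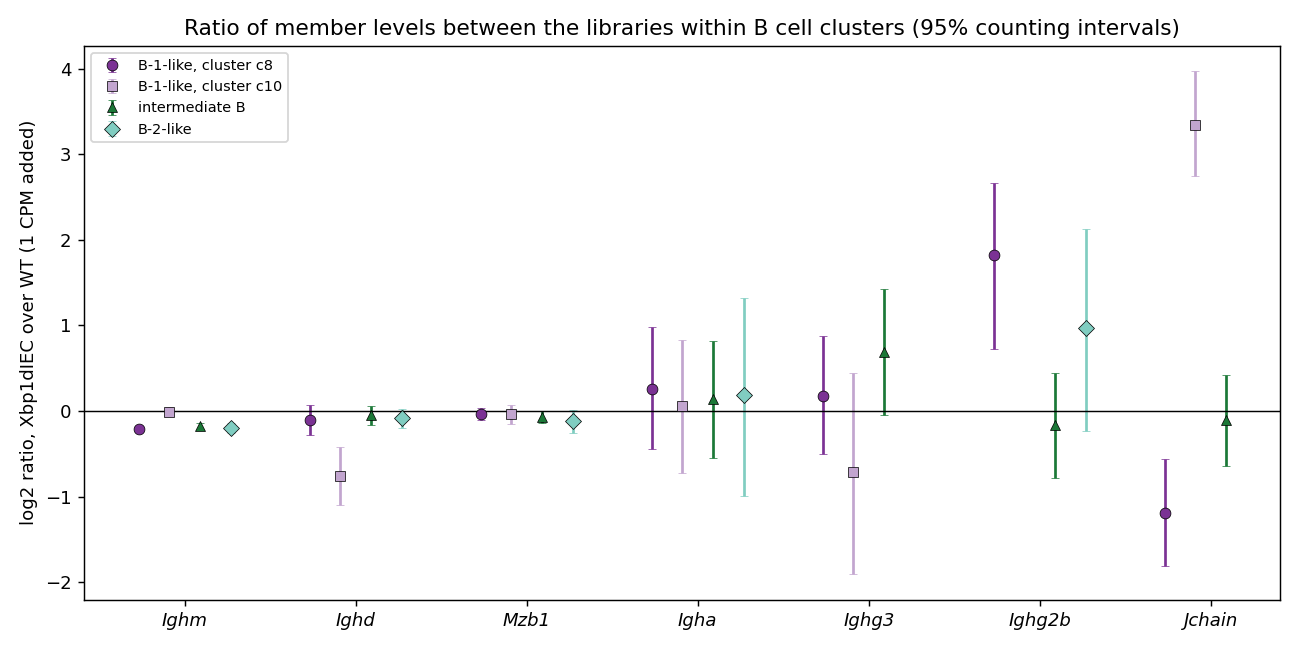
Log2 ratio of Xbp1dIEC over WT (y axis, 1 CPM added) for 7 members within 2 B-1-like clusters, the intermediate and the B-2-like class, with 95% counting intervals; genes with under 10 UMIs in both libraries together are not drawn. Ighm lies from -0.21 to -0.18 except in cluster c10 (-0.01). Ighd and Mzb1 lie from -0.12 to -0.03 except Ighd in cluster c10 (-0.76). Jchain lies at -1.19 in cluster c8 and 3.34 in cluster c10.

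Counted together, 7 of the 9 members had 30 or more UMIs in B-1-like cells. Of these 7, 2 were more than 1.5-fold higher in Xbp1dIEC (Ighg2b and Jchain), where 5.06% of all 9309 genes measured in the class were, and 0 were more than 1.5-fold lower, where 3.52% of all genes were; in either direction it was 8.58% of all genes. The members' median log2 ratio was -0.03, and that of all measured genes 0.01. In intermediate cells 1 of 7 was higher (Ighg3), beside 2.34% of all genes, and 0 lower, beside 3.34% of all genes, which makes 5.68% of all genes in either direction. In B-2-like cells 0 of 3 was higher, beside 3.12% of all genes, and 0 lower, beside 5.31%, with 8.43% in either direction. The calls of Ighg2b and Jchain rest on few cells, as described above.

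Of the 33 genes in the class switch list, which covers DNA repair and damage signalling in switching, 30 were measured in B-1-like cells. In Xbp1dIEC 1 was more than 1.5-fold higher, the DNA damage adaptor Mdc1 with 8.56 CPM in Xbp1dIEC and 5.19 CPM in WT, and 1 was lower, the abasic site protein Hmces with 17.7 CPM in Xbp1dIEC and 29.2 CPM in WT. These are 1 of 30 genes in each direction, beside 5.06% of all genes higher and 3.52% lower, and the list's median log2 ratio was -0.04.

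Of the 24 plasma cell and secretion genes, 20 were measured in B-1-like cells, 2 were higher and 2 lower by more than 1.5-fold, beside the same 5.06% and 3.52% of all genes, and the median log2 ratio was -0.04. Xbp1 itself had 47.2 CPM in Xbp1dIEC and 28.1 CPM in WT B-1-like cells, a log2 ratio of 0.73 (0.45 to 1.01). The chaperone Hspa5 had 177 CPM in Xbp1dIEC and 113 CPM in WT, a log2 ratio of 0.64. Lower were Prdm1, with 2.01 CPM (19 UMIs) in Xbp1dIEC and 4.33 CPM (20 UMIs) in WT, and Eaf2, with 5.18 CPM in Xbp1dIEC and 8.65 CPM in WT. Xbp1 had log2 ratios of 0.17 (-0.16 to 0.50) in intermediate and -0.15 (-0.73 to 0.42) in B-2-like cells, and 0.89 (-0.10 to 1.91) in T cell-like cells, with 43.0 CPM (23 UMIs) in Xbp1dIEC and 22.8 CPM (14 UMIs) in WT. Sdc1 had 5 UMIs in each library in B-1-like cells.

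Of the 29 receptors and regulators that direct switching and homing, 23 were measured in B-1-like cells, 1 was higher and 1 lower by more than 1.5-fold, beside 5.06% and 3.52% of all genes, and the median log2 ratio was 0.15. Smad3, which carries the TGF-beta signal that directs switching to IgA, had 8.99 CPM in Xbp1dIEC and 4.97 CPM in WT. Ccr9, a homing receptor for the small intestine, had 6.13 CPM in Xbp1dIEC and 10.8 CPM in WT. These levels are low, and cluster c10 was 16.0% of the class in Xbp1dIEC and 44.1% in WT. Whether the mix of clusters sets the ratios of the list genes was not tested. In intermediate cells, where 2.34% of all genes were higher and 3.34% lower past 1.5-fold, there were 0 higher and 2 lower of 28 class switch genes, 0 higher and 1 lower of 19 plasma cell genes, and 0 higher and 1 lower of 22 receptors and regulators. In B-2-like cells, where 3.12% of all genes were higher and 5.31% lower, there were 0 higher and 1 lower of 21 class switch genes, 0 higher and 1 lower of 14 plasma cell genes, and 2 higher and 1 lower of 21 receptors and regulators.

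Outside B cells the members were detected at low levels. Large macrophage-like cells had 30.4 CPM of Ighm in Xbp1dIEC and 38.9 CPM in WT, and 3.06 CPM of Ighd in Xbp1dIEC and 4.86 CPM in WT. Ighm in T cell-like cells was higher, at 180 CPM in Xbp1dIEC and 312 CPM in WT, and likewise in cytotoxic T or NK-like cells, at 304 CPM in Xbp1dIEC and 335 CPM in WT, and in Cd209a myeloid cells, at 144 CPM in Xbp1dIEC and 177 CPM in WT. These levels are still a small part of those in B cells. Igha and Ighg3 were at 0 UMIs in T cell-like cells of both libraries, which for each gene allows up to 5.61 CPM in Xbp1dIEC and 4.88 CPM in WT.

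The number of Ighm UMIs per Cd79a UMI differed between these classes. Large macrophage-like cells had 1.36 Ighm UMIs per Cd79a UMI in Xbp1dIEC and 1.29 in WT, and B-1-like cells 1.32 in Xbp1dIEC and 1.38 in WT. T cell-like cells had 8.00 (4.38 to 16.0) in Xbp1dIEC and 4.17 (3.01 to 5.89) in WT. Cd209a myeloid cells had 5.47 (3.78 to 8.14) in Xbp1dIEC and 3.48 (2.69 to 4.54) in WT, and cytotoxic T or NK-like cells 3.09 (2.26 to 4.29) in Xbp1dIEC and 2.17 (1.72 to 2.74) in WT. These intervals do not overlap those of the B-1-like cells of the same library. Igkc UMIs per Cd79a UMI numbered 5.25 in Xbp1dIEC and 4.76 in WT T cell-like cells, and 4.29 in Xbp1dIEC and 4.30 in WT Cd209a myeloid cells, against 3.78 in Xbp1dIEC and 3.89 in WT B-1-like cells.

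Ighm was also counted in cells without a UMI of any of 9 other B cell genes (Cd79a, Cd79b, Ms4a1, Igkc, Iglc1, Iglc2, Iglc3, Mzb1 and Ighd), in which its ratio to Cd79a cannot be formed. Among T cell-like cells 70 in Xbp1dIEC and 62 in WT met this condition, and 32 of the 70 in Xbp1dIEC and 30 of the 62 in WT still had an Ighm UMI, with 3 at most. Their Ighm level was 162 CPM (117 to 219) in Xbp1dIEC and 199 CPM (144 to 268) in WT. Large macrophage-like cells chosen in the same way, 778 in Xbp1dIEC and 443 in WT, had 23.8 CPM in Xbp1dIEC and 37.6 CPM in WT, with an Ighm UMI in 14.1% of Xbp1dIEC and 22.3% of WT cells. The median depths were 3540 UMIs in Xbp1dIEC and 3314 UMIs in WT for these T cell-like cells, and 6202 UMIs in Xbp1dIEC and 6126 UMIs in WT for these macrophage-like cells. No UMI of a heavy chain variable segment was found in these T cell-like cells of either library (0 in Xbp1dIEC and 0 in WT). Such segments are rarely reached by 3′ reads, with 56 UMIs beside 27900 of Ighm in Xbp1dIEC and 22 beside 15720 in WT B-1-like cells, so their absence at this depth does not show whether the transcripts were rearranged. The source of the Ighm in T cell-like and Cd209a myeloid cells was not tested.

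**Figure D4:**
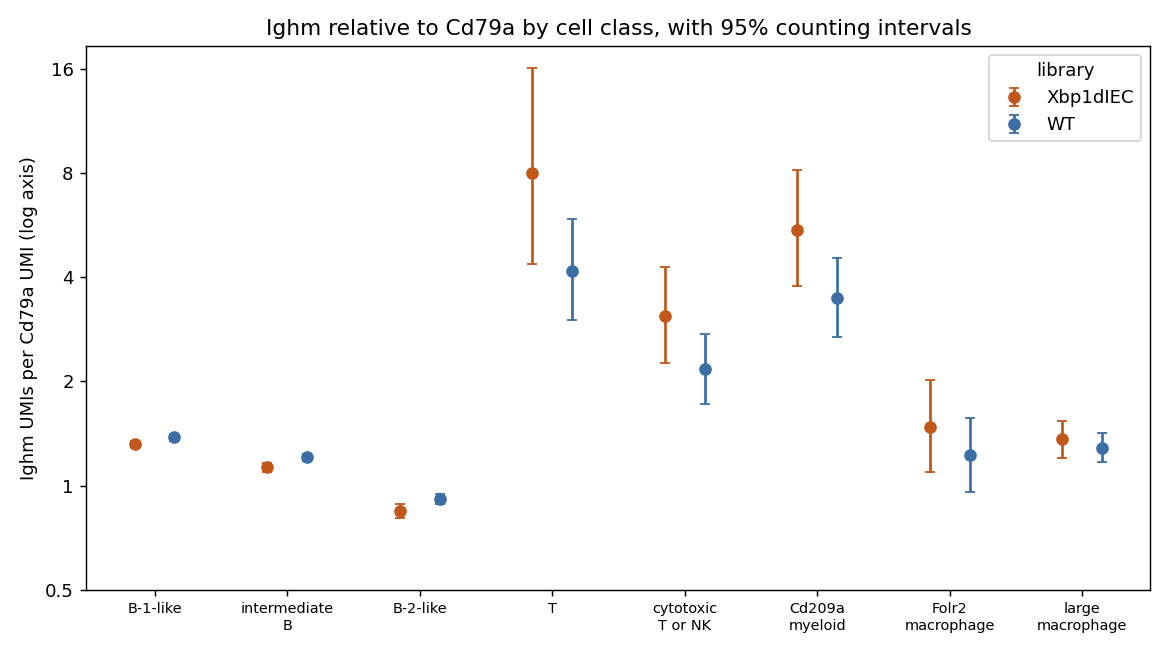
Ighm UMIs per Cd79a UMI (y axis, log scale) by cell class (x axis), with Xbp1dIEC (orange) left of WT (blue) and bars for 95% counting intervals. B cell and macrophage classes lie near 1 Ighm UMI per Cd79a UMI, and T cell-like cells lie at 8.00 in Xbp1dIEC and 4.17 in WT.

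Likeness of level across the clusters was described by Pearson's correlation of log2(CPM + 1) over 38 combinations of cluster and library, which share their library and the contrast of B cells with other cells. Mzb1 was most like Cd79b, Ly6d, Ms4a1 and Cd79a (0.99 each), all genes of B cells in general. Igha was most like Gm42835, 2010309G21Rik, Snn, Pik3c2b and Dnase1l3 (0.96 to 0.97). Jchain was most like Agbl1 (0.87), Slc39a4 (0.86) and the B-1 marker Zbtb32 (0.84), followed by Gm30382 and Gpr55 (0.84 each).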

How the data were processed

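Raw UMI counts for each gene and barcode were deposited by the authors, without normalization, from 10x Chromium 3′ libraries of 2 pools of peritoneal cells sequenced together, per the labels' protocols. Per the submitters' processing notes, reads were handled on mm10 with tools that include Cell Ranger 2.2.0 and Seurat 2.3.0. The annotation release is not given in the sources used here, nor is a barcode filter. The filter asked for at least 500 UMIs, at least 200 genes and a mitochondrial share below 10%, and it dropped 20 Xbp1dIEC and 6 WT barcodes. Doublets were called per library with scrublet in scanpy 1.11.5 at an expected rate of 5%, and 113 Xbp1dIEC (1.81%) and 140 WT barcodes (2.26%) were removed. Median depth per barcode was 7280 UMIs in Xbp1dIEC and 8324 in WT. Joint clustering of both libraries used 2000 variable genes, leaving out immunoglobulin genes, Jchain and Mzb1 (30 principal components, 15 neighbours, Leiden at resolution 1; Python 3.11.15, igraph 0.11.9, numpy 2.4.6, scipy 1.17.1), which gave 20 clusters. Clusters were named from marker lists; the scoring rule, including a ratio of 5 between B-1 and B-2 markers, was set after the clusters were seen. The authors' own cell annotation was not used here, so classes may differ from theirs. The members and lists were chosen with earlier results of these data known.

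Summed UMIs of each class and library were scaled to CPM, with exact Poisson intervals. Ratios were taken after adding 1 CPM, with intervals from the exact conditional binomial distribution. Shares carry exact Clopper-Pearson intervals, and the level is 95% throughout. UMI counts of 0 are given with the limit that 3 counts would set. Cells were thinned to 2500 UMIs for shares compared between classes. A gene was measured in a class with 30 or more UMIs in both libraries together and called past 1.5-fold by its ratio alone. Named were all 9 members, Ighe and Ighg2a, list members past 1.5-fold in B-1-like cells, Prdm1, Sdc1, Xbp1, Zfp318, the naming markers, and for Igha, Jchain and Mzb1 the 5 genes most alike across clusters. Some genes that the rule names are not reported here. A ranking in cells led by Igha could not be made because there were 0 such cells. The interval and ratio calculation was tested on simulated data. The simulated sums were Poisson counts, as the intervals assume, so the test does not cover an uneven spread of UMIs over cells.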

Additional observations from a re-analysis of the deposited data

How the results depend on the processing

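No paired analysis was possible because each genotype has 1 library. Intervals show counting error alone, so the difference between 2 pools of the same genotype is unknown. Shares with both transcripts depend on depth and on how the class was drawn. The share of B-1-like cells with Ighm and Igha was 8.04% in Xbp1dIEC and 7.88% in WT without thinning, and 0.939% in Xbp1dIEC and 0.375% in WT at 1000 UMIs per cell. The share with Ighm and Ighd was 50.3% in Xbp1dIEC and 51.8% in WT without thinning, 9.29% in Xbp1dIEC and 11.3% in WT at 1000 UMIs, 29.1% in Xbp1dIEC and 35.5% in WT with called doublets kept, and 32.9% in Xbp1dIEC and 38.0% in WT with a stricter filter on cells. It was 25.2% in Xbp1dIEC and 32.6% in WT with each B cell classed by its own marker UMIs, and, in Xbp1dIEC, 23.1% at resolution 2 and 23.4% with the constant genes, Jchain and Mzb1 among the clustering genes. The count of class switch genes past 1.5-fold was 0 with 10 CPM added and 0 with cells classed by their own markers, against 2, and that of plasma cell genes 1 with 10 CPM added and 2 with doublets kept, against 4. Adding 10 CPM shrinks the ratio of a gene at a low level by construction, so the 2 class switch calls could not stand in that run. The share of B-1-like cells led by Igha was 0 under every alternative run. The log2 ratio of Jchain in B-1-like cells changed sign in cluster c8 alone, at -1.19; this alternative, and those leaving out the highest cell, the shared barcodes or cluster c8, were chosen after seeing the data. Over all alternatives the B-1-like log2 ratio ranged from -0.23 to -0.01 for Ighm, -0.76 to -0.01 for Ighd, -0.06 to 0.06 for Mzb1, -0.21 to 0.25 for Igha, -0.71 to 0.45 for Ighg3, 0.19 to 2.06 for Ighg2b and -1.19 to 3.34 for Jchain. With doublets kept, at resolution 0.5, or with the constant genes among the clustering genes, no cluster met the B-2 rule with 50 cells, so B-2-like values have no such alternative. The cause of these shifts was not tested.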
